A study of Mus musculus with 4 samples.

Results

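The genes described here are 35 mouse genes known to be imprinted, that is, transcribed mainly from the allele of 1 parent. The list was put together gene by gene with results of these same arrays already known, among them the effect of silencing at 96 h, so that values of that effect are given below as a description and carry no p-value. Of the 35 genes, 32 had at least 1 probe on the array (56 probes), and 31 had a probe well above background, so that 31 of the 21751 genes tested are members. By the allele known to be active, 16 of the 31 are maternally expressed, 14 are paternally expressed, and Gnas uses either allele depending on the transcript. Zim1 had a probe that was not well above background in any of the 8 channels, and the expression of H19, Meg3 and Magel2 was not analysed here.

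The cells were D3, a line of mouse embryonic stem cells, and the question was what silencing of Pnpla6 changes while they differentiate. Pnpla6 encodes neuropathy target esterase, a phospholipase that breaks down phosphatidylcholine in the membrane of the endoplasmic reticulum. Silenced cells had been transfected with siRNA to Pnpla6 by a lipid reagent and were set beside control cells, whose own treatment the labels do not describe; both were grown as embryoid bodies in medium lacking LIF. The 4 RNA groups were silenced cells at 96 h, control cells at 96 h, silenced cells at 24 h and control cells at 24 h, and each was measured on 2 arrays as 1 of the 2 colours. All the RNA came from 1 cell line, and the labels leave unsaid whether replicates 1 and 2 were separate cultures. The p-values below therefore measure only spread among these samples, which may be technical. For silencing, that spread is what remains after a term for dye orientation, and it leans on the spread shared over genes. The SE of a silencing ratio thus does not show how far the 2 arrays of that gene lie apart.

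In imprinting, DNA methylation laid down in the egg or the sperm marks a control region, and that mark decides in the embryo which parental copy of the neighbouring genes is read. Imprinted genes therefore lie in clusters: the paternal noncoding RNA Kcnq1ot1 silences Cdkn1c, Phlda2 and their neighbours on its own chromosome, and the Peg10 and Sgce promoters share a control region methylated on the maternal copy. Many paternally expressed genes promote growth of the embryo and placenta, such as the ligand Igf2, and many maternally expressed genes restrain it, such as Igf2r, Grb10, Cdkn1c and Phlda2. Several members are imprinted in some tissues only, for example Calcr, Commd1 and Trappc9 in the brain. The probes read both alleles together, so "maternal" and "paternal" below name the allele known to be active and not something measured here. Since each sample is bulk RNA, fewer cells that express a gene and less of its RNA per cell cannot be told apart.

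The promoters of Grb10, Calcr and Phlda2 are shown first. These 3 maternally expressed members have 2 or 3 probes each and were lower in silenced cells at 96 h on all of them. CpG, a C followed by a G on the same strand, is the site at which DNA, imprinted or not, is mainly methylated in mammals. Each run holds the 250 bases before a transcription start in the GRCm38.p6 assembly of RefSeq, read 5′ to 3′ on the minus strand on which these genes lie, with every CpG in capitals. Grb10 has 2 starts in that table, with windows at chr11:12037421-12037670 and chr11:12027972-12028221, Calcr has 2, at chr6:3763624-3763873 and chr6:3764714-3764963, and Phlda2 has 1, at chr7:143502525-143502774.
Grb10 (CpG-rich start): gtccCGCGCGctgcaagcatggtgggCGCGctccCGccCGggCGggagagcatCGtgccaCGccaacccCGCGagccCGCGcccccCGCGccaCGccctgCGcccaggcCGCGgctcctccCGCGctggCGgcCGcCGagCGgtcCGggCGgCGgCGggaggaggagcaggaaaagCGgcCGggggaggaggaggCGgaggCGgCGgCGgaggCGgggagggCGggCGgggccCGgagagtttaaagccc
Grb10 (other start): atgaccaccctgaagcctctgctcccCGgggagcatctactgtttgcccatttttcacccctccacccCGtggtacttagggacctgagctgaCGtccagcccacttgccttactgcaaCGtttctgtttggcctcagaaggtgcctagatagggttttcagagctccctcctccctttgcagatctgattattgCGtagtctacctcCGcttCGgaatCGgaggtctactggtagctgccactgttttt
Calcr (CpG-rich start): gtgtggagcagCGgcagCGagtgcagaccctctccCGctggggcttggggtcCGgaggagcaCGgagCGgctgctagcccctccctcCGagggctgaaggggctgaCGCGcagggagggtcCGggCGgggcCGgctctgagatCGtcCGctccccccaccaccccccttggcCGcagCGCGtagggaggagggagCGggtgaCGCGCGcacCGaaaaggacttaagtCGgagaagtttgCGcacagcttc
Calcr (other start): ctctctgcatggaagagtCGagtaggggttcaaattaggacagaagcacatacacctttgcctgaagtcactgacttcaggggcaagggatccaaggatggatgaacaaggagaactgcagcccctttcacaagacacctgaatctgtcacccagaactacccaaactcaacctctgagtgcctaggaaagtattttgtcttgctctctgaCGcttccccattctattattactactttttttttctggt
Phlda2: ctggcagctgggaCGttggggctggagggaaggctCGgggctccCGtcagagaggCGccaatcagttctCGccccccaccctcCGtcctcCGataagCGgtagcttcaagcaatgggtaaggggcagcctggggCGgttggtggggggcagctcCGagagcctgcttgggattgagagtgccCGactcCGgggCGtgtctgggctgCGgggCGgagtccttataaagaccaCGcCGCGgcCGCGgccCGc

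The CpG-rich start of Grb10 holds 40 CpGs, and 1.31% of all 32851 promoter windows in the table hold as many, whereas its other start holds 8, as many as 43.0% of windows. For Calcr the counts are 24 CpGs (reached by 12% of windows) and 2 (81.2%), and for Phlda2 21 (16.3%). The median over all windows is 6 CpGs, over the 44 windows of the 26 listed genes found in the table, Zim1, Meg3 and Magel2 among them, it is 11, over 19 windows of maternally expressed members 16, and over 21 windows of paternally expressed members 7. The letters TGCCGC (or GCGGCA on the other strand), the core that the imprint-protecting zinc finger protein ZFP57 is known to bind when methylated, were searched on both strands. They stand in 7 of the 44 members' windows (15.9%) and in 8.68% of all windows, and of the starts shown they occur once, from base 11 of the CpG-rich Calcr start. Overlapping windows of neighbouring Mest starts hold the same sites, so that promoter counts more than once. The letters also include a CpG, of which the members' windows hold more, so nothing is read from the excess. Peg10 and Cdkn1c have no entry in the table. These counts describe the letters of the reference genome, and neither methylation nor binding was measured.

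The targeted gene and the wider state of the cells frame these values. Pnpla6 gave log2 ratios of silenced to control of 0.12 and -0.11 at 96 h (mean 0.01), against -0.73 and -1.0 at 24 h (mean -0.87, SE 0.06, 54.9% of the control level, limma adjusted p = 1.84e-11), so its level was lowered at 24 h and not measurably at 96 h. The 24 h call held in 3 of 10 alternative settings of the processing, while the log2 value stayed between -1.0 and -0.73. With a normexp offset of 16, with the authors' ratios and without the replicate block no gene at all passed at 24 h. Per channel, 62.5% to 68.5% of probes were well above background, no spot was saturated, and precision is limited by having 2 arrays at each time. Of 8 embryonic stem cell markers all 8 were well above background in these differentiating cells, of 10 endoderm markers 8, of 8 trophoblast markers 4, of 8 mesoderm and fibroblast markers 6, and of 6 neural markers 6. The array of 96 h replicate 2 lay alone on the second slide, so slide and time are partly confounded.

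At 96 h, 7 imprinted genes were lower and 2 were higher in silenced than in control cells at an adjusted p under 0.05. Grb10, an adaptor that binds the insulin and IGF1 receptors and damps their signal, and Calcr, the receptor for the hormone calcitonin, were at 49.1% and 51.6% of the control level. Peg10, a retrotransposon-derived gene needed for the placenta, was at 64.1%, and the growth restrainers Phlda2 and Cdkn1c were at 79.7% and 84.3%. The 9 of 31 members past the threshold stand beside 13.5% of all genes in the same fit, with 6.82% lower and 6.63% higher. Because the list was drawn up with this contrast known, nothing is read from the excess. All 9 had the same sign on both arrays, whereas 10595 of all 21751 genes had opposite signs. The 9 were called on the mean of these same arrays, so nothing is read from that either.

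**Figure D1:**
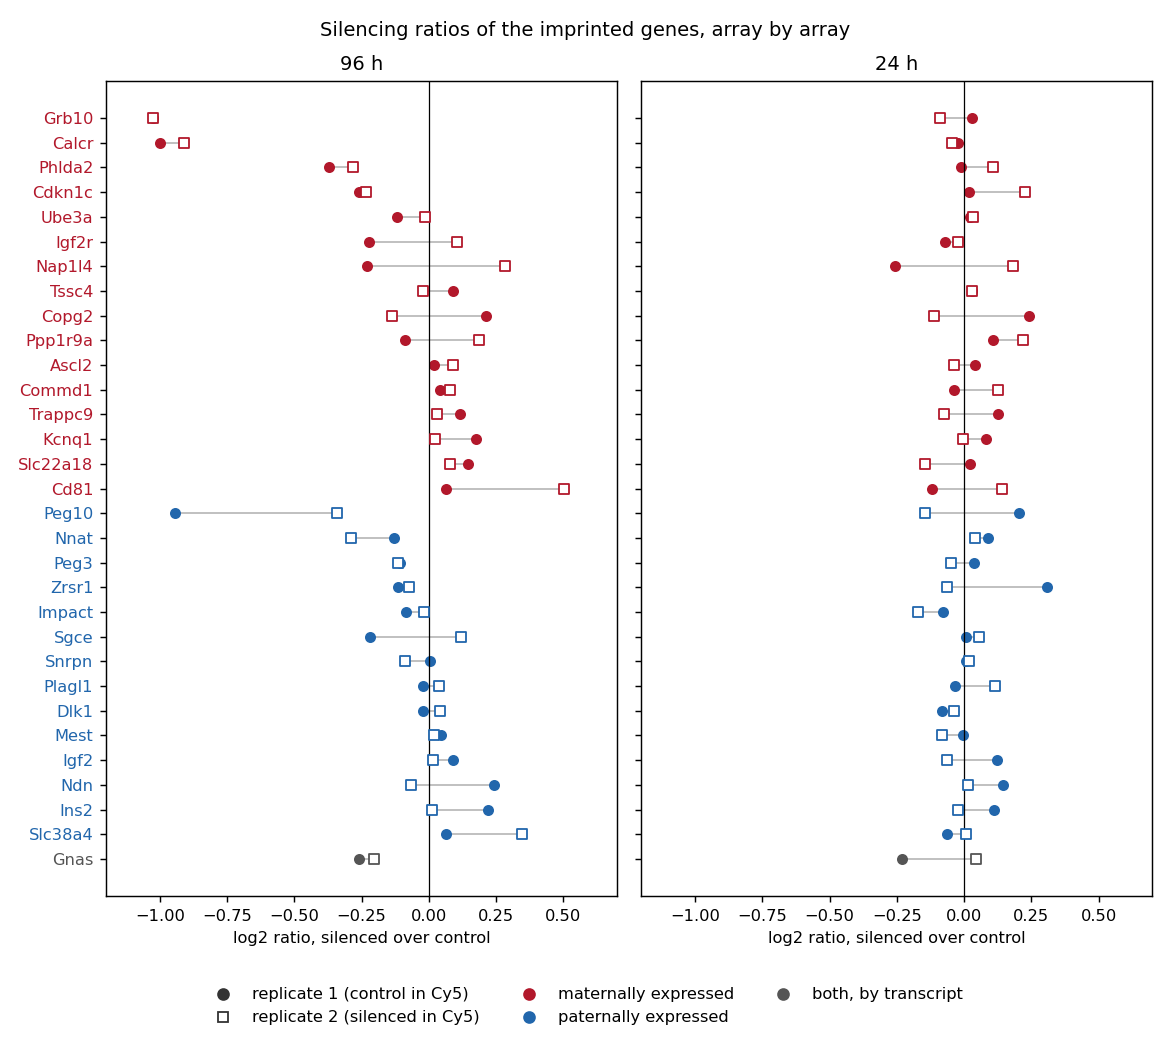
Log2 ratio of silenced to control cells (x axis) for each of the 31 imprinted genes tested, at 96 h (left) and 24 h (right); filled circles are replicate 1, with the control in Cy5, open squares are replicate 2, with the silenced cells in Cy5, and a grey line joins the arrays of a gene. At 96 h Grb10, Calcr and Peg10 lie furthest to the left, while at 24 h no member lies beyond 0.31 on either array.

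Grb10 stood at a log2 intensity of 9.17 and 9.12 in silenced cells at 96 h, against 10.20 and 10.14 in control cells. The arrays gave log2 ratios of -1.03 and -1.02 (mean -1.02, SE 0.06), and 17 of the 21751 genes had a lower mean ratio. The silenced and control values do not overlap, and control cells at 24 h stood at 10.03 and 10.01. The 2 dimmer probes of Grb10 gave smaller ratios of the same sign, -0.35 and -0.21.

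Calcr was at 7.64 and 7.65 in silenced cells at 96 h, against 8.64 and 8.56 in control cells. Its ratios were -1.0 and -0.91 (mean -0.95, SE 0.06), with 23 genes lower, and the groups do not overlap. Its dimmer probe, which was not well above background in any channel at 24 h or on 1 of the 2 arrays in silenced cells at 96 h, gave -0.33. At 24 h the tested probe read 6.69 and 6.79 in silenced cells, against 6.71 and 6.84 in control cells, so Calcr was low in both kinds of cell before its later rise.

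Peg10, the paternally expressed member with the largest difference, was at 7.60 and 7.61 in silenced cells at 96 h, against 8.54 and 7.95 in control cells. The ratios of -0.94 and -0.34 (mean -0.64, SE 0.08) share a sign but differ by more than those of Grb10 or Calcr, and the spread lies in the control channel. Peg10 has 1 probe. Without 96 h replicate 1 its ratio is -0.34 and without 96 h replicate 2 it is -0.94, and neither passes the threshold.

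Phlda2, a pleckstrin-homology protein that limits placental growth, was at 9.68 and 9.76 in silenced cells at 96 h, against 10.06 and 10.04 in control cells, with ratios of -0.37 and -0.28 (mean -0.33, SE 0.06). Its dimmer probe gave -0.25. Cdkn1c, the cyclin-dependent kinase inhibitor p57, was at 8.08 and 8.01 in silenced cells, against 8.34 and 8.24 in control cells, with ratios of -0.26 and -0.23 (mean -0.25, SE 0.06). In neither gene do the groups overlap, and both differences are far smaller than those of Grb10 and Calcr.

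Gnas, which encodes the stimulatory G protein alpha subunit, was at 8.59 and 8.59 in silenced cells at 96 h, against 8.85 and 8.79 in control cells (ratios -0.26 and -0.20). Its 2 other probes did not pass the filter and gave -0.02 and -0.03. Nnat, a small membrane protein of the endoplasmic reticulum, was at 6.37 and 6.20 in silenced cells, against 6.50 and 6.48 in control cells (ratios -0.13 and -0.29). Both genes were lower in silenced cells by no more than 0.29 on either array.

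The higher genes were Cd81, a tetraspanin of the cell surface, and Slc38a4, an amino acid transporter. Cd81 was at 14.70 and 15.04 in silenced cells at 96 h, against 14.63 and 14.54 in control cells, with ratios of 0.07 and 0.50 (mean 0.28, SE 0.06). Slc38a4 was at 7.29 and 7.51 in silenced cells, against 7.22 and 7.16 in control cells, with ratios of 0.06 and 0.34 (mean 0.20, SE 0.06). In both genes the groups do not overlap but replicate 2, the array on the second slide, carries most of the difference. The other probe of Slc38a4 gave -0.05.

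**Figure D2:**
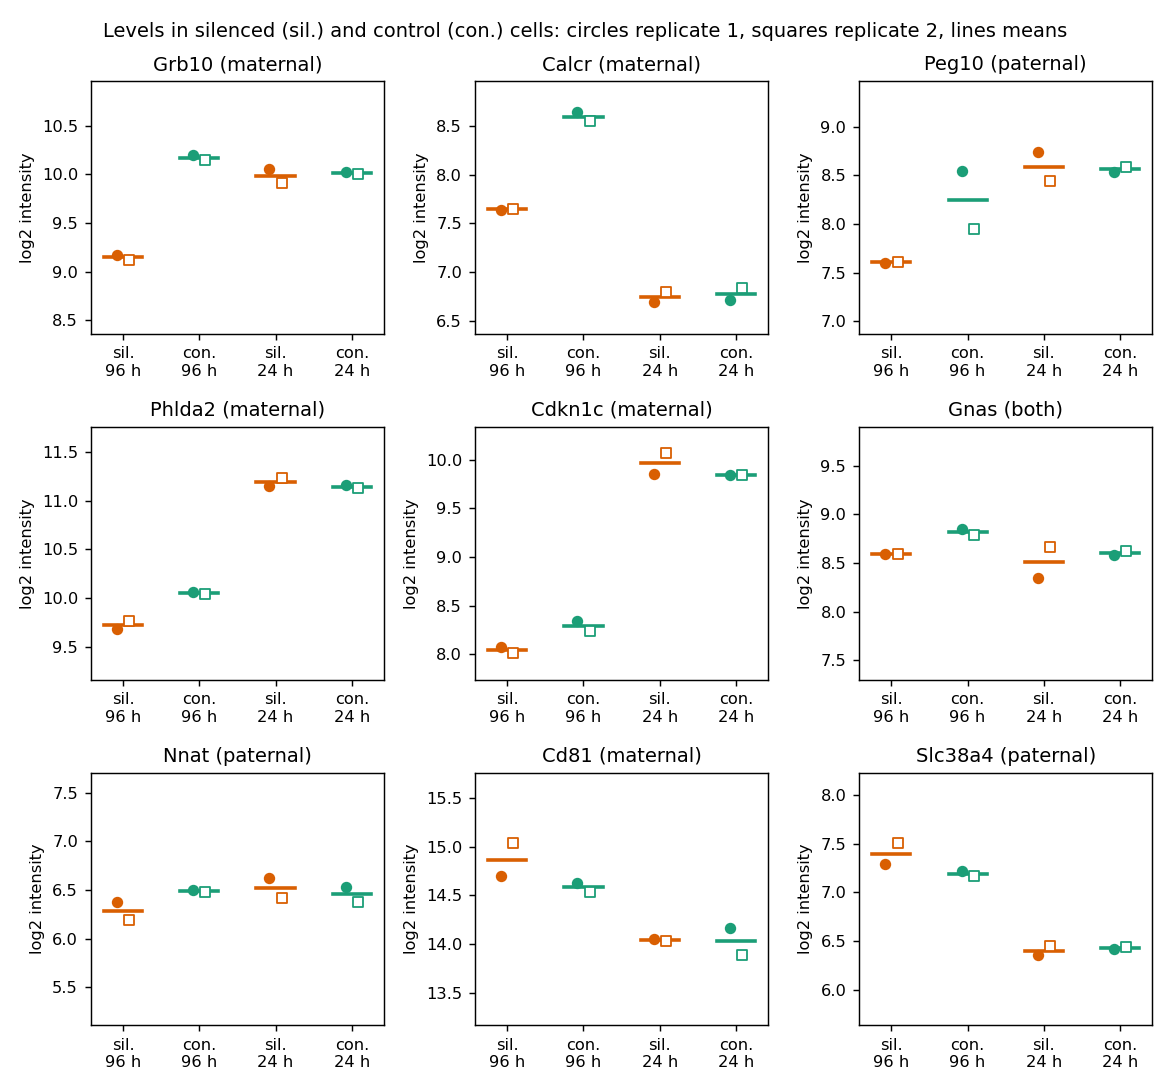
Log2 intensity of the 9 imprinted genes past the threshold at 96 h, in silenced (sil., orange) and control (con., green) cells at 96 h and at 24 h; filled circles are replicate 1, open squares replicate 2, and lines the mean of both, and every panel spans the same height. Grb10 is low in silenced cells at 96 h alone, at 9.17 and 9.12, while Calcr is raised at 96 h in both kinds of cell, less so in silenced cells.

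These calls differ in how far they hold. Without the replicate block, that is, without the term for dye orientation, Grb10 and Calcr alone of the 9 passed, and the same 2 passed when any 1 array was left out. With the authors' deposited ratios in place of the scanner signals no gene at all passed, members included. Still 9 members had an unadjusted p under 0.05, and Grb10 (-1.16) and Calcr (-1.27) were at least as far below 0. The other 22 members ran from -0.11 for the zinc finger gene Peg3 to 0.12 for Ins2, with SEs between 0.06 and 0.08. Each of these values lies within 2 SEs of 0.

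Maternally and paternally expressed genes both held lower and higher members. The median log2 ratio at 96 h was 0.036 over the 16 maternally expressed genes and -0.017 over the 14 paternally expressed genes, beside 0.00099 over all genes. Of the maternally expressed genes 10 had a mean ratio above 0 and 6 below, and of the paternally expressed genes 7 and 7. Past the threshold were 5 maternally expressed genes (4 lower, Cd81 higher) and 3 paternally expressed genes (Peg10 and Nnat lower, Slc38a4 higher), beside the 6.82% of all genes lower and 6.63% higher. The arrays taken singly gave medians of -0.034 in replicate 1 and 0.026 in replicate 2 over maternally expressed genes, and of -0.023 and -0.0034 over paternally expressed genes.

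Members past the threshold at 96 h that have other tested members in their cluster lie in the Kcnq1 and Peg10 domains. In the Kcnq1 domain the annotation order is Ascl2, Cd81, Tssc4, Kcnq1, Cdkn1c, Slc22a18, Phlda2 and Nap1l4. Cd81 was higher, Cdkn1c and Phlda2 were lower, and between the last pair Slc22a18, an organic cation transporter-like protein, gave ratios of 0.14 and 0.08. The placental transcription factor Ascl2 (0.02 and 0.09), Tssc4 (0.09 and -0.02) and the potassium channel Kcnq1 (0.18 and 0.02) did not pass. Nap1l4, a nucleosome assembly protein, gave -0.23 and 0.28 on its brightest probe and did not pass. The means of its 3 probes disagreed, at 0.03, 0.10 and -0.23. The last, from the dimmest probe, came from ratios of -0.19 and -0.26 and passed in the fit over all probes.

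In the Peg10 domain Calcr and Peg10 were lower, while Sgce, the sarcoglycan whose start lies next to that of Peg10 with no gene between, gave -0.22 and 0.12. Ppp1r9a, the actin-binding neurabin 1, gave -0.09 and 0.19 and did not pass on any of its 4 probes. Over the 4 genes the range was -0.95 to 0.05. Calcr lies 6 protein-coding genes away from Sgce.

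**Figure D3:**
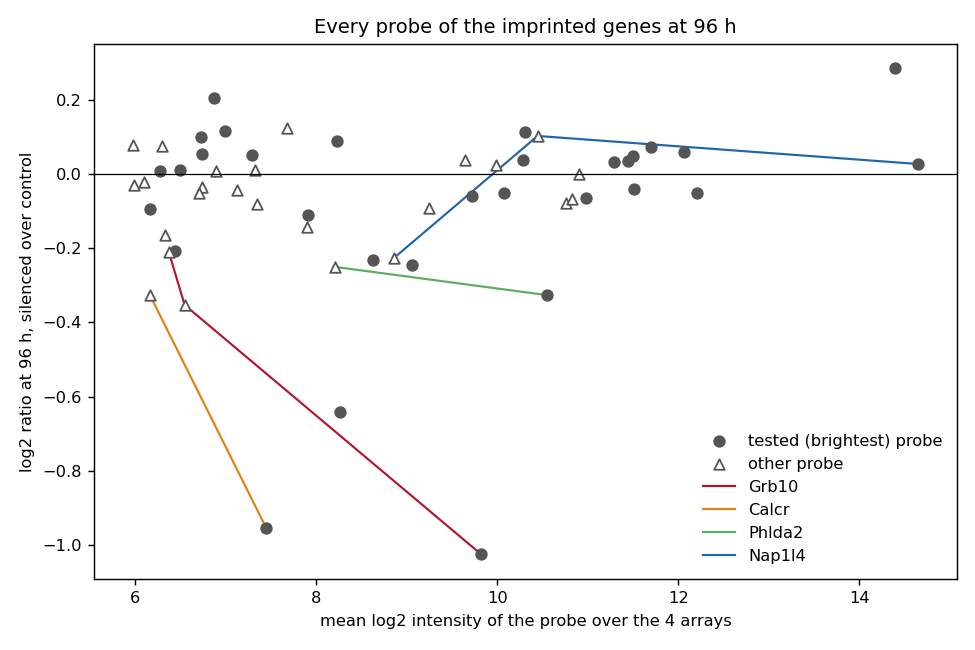
Mean log2 ratio of silenced to control cells at 96 h (y axis) against the mean log2 intensity of the probe over the 4 arrays (x axis) for all 56 probes of the imprinted genes; filled circles are the brightest probe of each gene, open triangles the others, and lines join the probes of Grb10, Calcr, Phlda2 and Nap1l4. The dimmer probes of Grb10 (-0.35 and -0.21), Calcr (-0.33) and Phlda2 (-0.25) keep the sign of the brightest probe, and those of Nap1l4 do not share one.

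Markers of other cell types differed at 96 h as well. Of the embryonic stem cell list 5 of 8 passed, beside 13.5% of all genes. Sox2 (0.37), Zfp42 (0.30) and Esrrb (0.37) were higher in silenced cells on both arrays. Dppa5a averaged 0.21, but from ratios of -0.84 and 1.26, and Pou5f1 averaged -1.05, but from ratios of 0.01 and -2.11, so neither has a direction shared by the arrays. The endoderm list summed to 7364 to 8316 intensity units in silenced cells and 7136 to 7236 in control cells, most of it from Sparc, which did not pass (0.19 and -0.0011 on the arrays, mean 0.09). Of the 8 measured endoderm members 2 passed, beside 13.5% of all genes: the visceral endoderm receptor Cubn (1.05) and its partner Amn (0.29). The other 6 did not pass, 2 of them below 0 (lowest -0.09), and Apoa1 and Ttr were not well above background. The mesoderm and fibroblast list summed to 1470 to 1528 in silenced cells and 1753 to 1912 in control cells. Of its 6 measured members 3 passed, beside 13.5% of all genes, with Dcn at -0.43, Col1a2 at -0.35 and Thy1 at -0.32. Another 2 were above 0 (highest 0.17) and did not pass, and Mixl1 and Col3a1 were not well above background.

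The neural list summed to 2002 to 2126 in silenced cells at 96 h and 2308 to 2334 in control cells, and Nes alone of its 6 members passed, at -1.02, again beside 13.5% of all genes. The trophoblast list, from the lineage in which Phlda2, Cdkn1c, Peg10 and Ascl2 are known to act, summed to 5105 to 5181 in silenced cells and 4609 to 5119 in control cells. None of its 4 measured members passed at an adjusted p under 0.05 in limma (1 had an unadjusted p under 0.05), and Elf5, Gata3, Plac1 and Tpbpa were not well above background. The part of these shifts in the values of Grb10, Calcr and the others was not tested.

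At 24 h none of the 31 imprinted genes passed in the silencing contrast in limma at an adjusted p under 0.05, beside 0.377% of all genes, and 1 had an unadjusted p under 0.05. That gene was Ppp1r9a (0.11 and 0.22, mean 0.16, adjusted p = 0.422), the highest value, and the lowest was that of Impact, a regulator of translation, at -0.08 and -0.17 (mean -0.12, adjusted p = 0.667). SEs ran between 0.06 and 0.08. Of the 31 members 18 had opposite signs on the 2 arrays, 8 were above 0 on both and 5 below. Of all 21751 genes 13504 had opposite signs, 4214 were above 0 on both and 4033 below. The median was 0.026 over maternally expressed genes, 0.028 over paternally expressed genes and 0.00067 over all genes.

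For the 5 genes with the lowest ratios at 96 h, the 24 h intervals included 0. Grb10 gave 0.03 and -0.09 at 24 h (95% interval of the mean -0.16 to 0.10), Calcr -0.02 and -0.04 (-0.16 to 0.09), Peg10 0.20 and -0.15 (-0.14 to 0.20), Phlda2 -0.01 and 0.11 (-0.08 to 0.17) and Cdkn1c 0.02 and 0.23 (-0.01 to 0.25). The interval of Grb10 reaches to -0.16, so a fall of the size seen at 96 h lies outside it. That of Calcr reaches to -0.16 as well, but Calcr read 6.69 to 6.84 at 24 h. The lowest levels well above background there were 5.94 to 6.01. So near the floor a ratio can fall only so far, and how large a fall of Calcr at 24 h would have shown was not tested. Gnas gave -0.23 and 0.04 at 24 h (-0.22 to 0.04), an interval that reaches almost to its 96 h mean of -0.23, and Nnat gave 0.09 and 0.04 (-0.06 to 0.19). The effect at 96 h minus that at 24 h was -0.99 for Grb10, -0.92 for Calcr, -0.67 for Peg10, -0.38 for Phlda2 and -0.37 for Cdkn1c. These 5 of 31 passed the same threshold beside 6.94% of all genes (4.11% below 0 and 2.83% above), Gnas (-0.14) and Nnat (-0.27) did not, and since the difference holds the 96 h values, nothing is read from that count either.

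Between 24 h and 96 h 17 of the 31 imprinted genes passed the threshold in each kind of cell. In silenced cells 10 of 31 members were higher at 96 h than at 24 h and 7 were lower, beside 19.6% of all genes higher and 17.6% lower (37.2% in all, limma on single channels). In control cells 10 were higher and 7 lower, beside 19.4% and 16.8% of all genes (36.2% in all). Both changes share their 96 h channels with the silencing contrast with which the list was known, so nothing is read from the excess over all genes. The change in control cells is given with its p, which does not allow for that choice of the list. That in silenced cells, which holds the effect of silencing, is given without one. In control cells the rises were led by Calcr, Sgce, Igf2 and Copg2 and the falls by Cdkn1c and Phlda2. There 6 maternally expressed genes rose and 5 fell, and 4 paternally expressed genes rose and 2 fell. The median in control cells was 0.15 over maternally expressed genes, 0.016 over paternally expressed genes and -0.0020 over all genes.

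**Figure D4:**
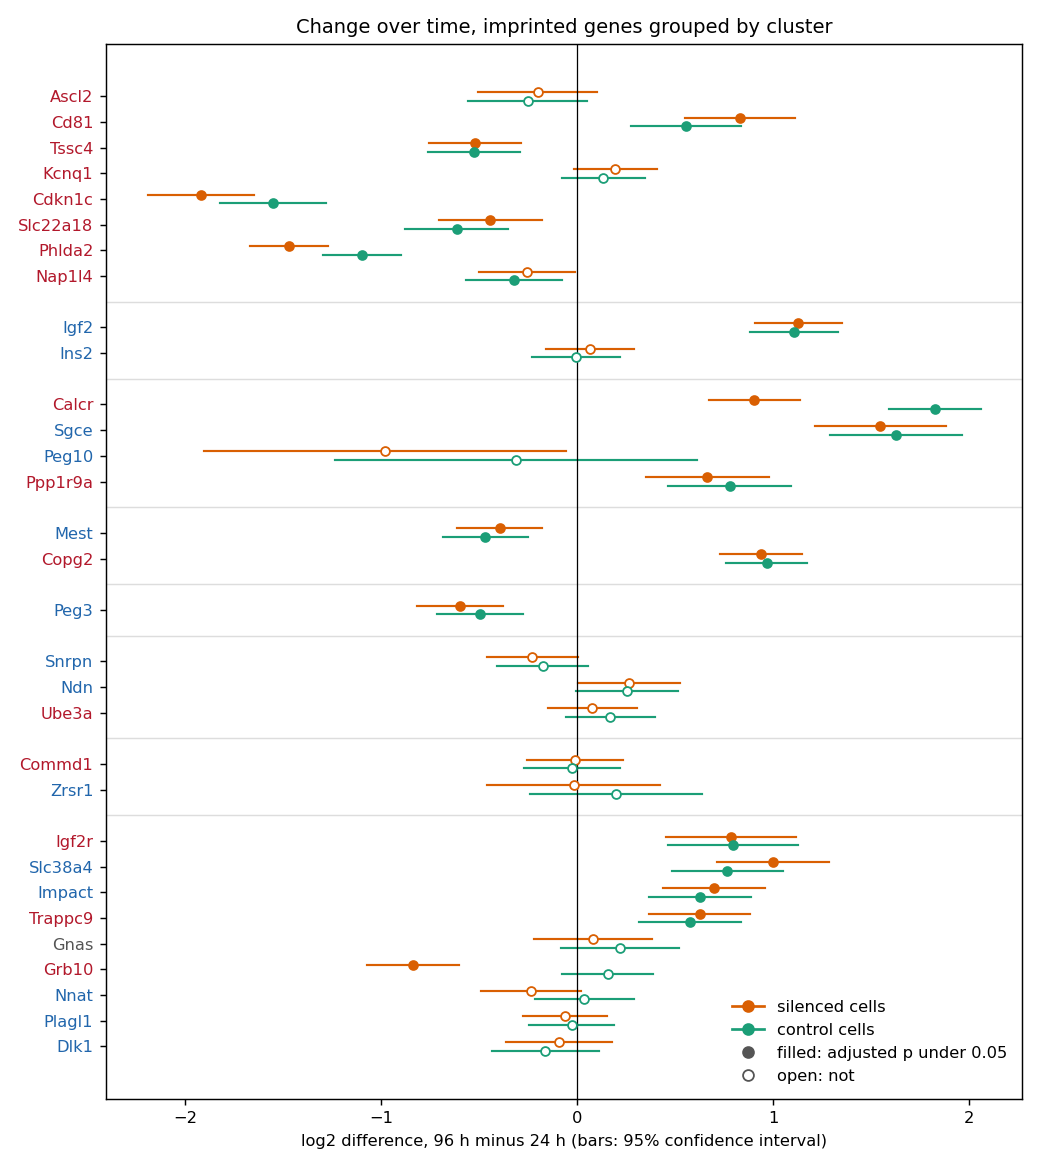
Log2 difference between 96 h and 24 h (x axis) for the 31 imprinted genes in silenced cells (orange, upper mark) and control cells (green, lower mark), grouped by cluster from the Kcnq1 domain at the top to genes with no other member nearby at the bottom; bars are 95% confidence intervals and filled marks have an adjusted p under 0.05. Names in red are maternally, in blue paternally expressed genes. Within the Kcnq1 domain Cdkn1c and Phlda2 lie furthest below 0 and Cd81 above it, and Grb10 is filled in silenced cells alone.

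Among growth regulators, Igf2, the paternally expressed growth factor, stood at 7.91 and 7.82 in silenced cells at 96 h, against 6.78 and 6.69 at 24 h (1.13, SE 0.10). In control cells it was at 7.82 and 7.81 at 96 h, against 6.66 and 6.75 at 24 h, a rise of 1.11 (SE 0.10, limma adjusted p = 0.000137). Its dimmer probe gave 0.49 in silenced and 0.38 in control cells. Igf2r, the receptor that removes IGF2, differed by 0.79 in silenced cells and rose by 0.80 in control cells (SE 0.14, limma adjusted p = 0.00400), where it read 10.21 and 10.10 at 96 h against 9.42 and 9.29 at 24 h. The ligand and the receptor that clears it thus both rose in control cells. Their silencing ratios at 96 h, 0.05 for Igf2 and -0.06 for Igf2r with an SE of 0.06 each, were no larger than their error. Ins2, the insulin gene beside Igf2, gave 0.07 in silenced and -0.01 in control cells over time.

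Grb10 was at 9.17 and 9.12 in silenced cells at 96 h, against 10.05 and 9.92 at 24 h (-0.84, SE 0.10). In control cells it was at 10.20 and 10.14 at 96 h, against 10.03 and 10.01 at 24 h, and did not pass (0.16, SE 0.10, limma adjusted p = 0.271). The 2 changes differ by the -0.99 given above. The 2 dimmer probes gave -0.57 and -0.32 in silenced cells and -0.28 and -0.09 in control cells, so the sign in control cells differs between probes.

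In the Kcnq1 domain 4 of 8 genes were lower and 1 higher at 96 h than at 24 h in silenced cells, beside 17.6% and 19.6% of all genes; in control cells 5 fell and 1 rose, beside 16.8% and 19.4%. Cdkn1c was at 8.08 and 8.01 in silenced cells at 96 h, against 9.86 and 10.07 at 24 h (-1.92), and in control cells at 8.34 and 8.24 against 9.84 and 9.84 (-1.55, SE 0.12, limma adjusted p = 7.21e-05). Phlda2 was at 9.68 and 9.76 in silenced cells at 96 h, against 11.15 and 11.23 at 24 h (-1.47), and in control cells at 10.06 and 10.04 against 11.16 and 11.13 (-1.10, SE 0.09, limma adjusted p = 8.34e-05). Both genes were lower at 96 h in each kind of cell, with no overlap between the times, and lowest in silenced cells.

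Slc22a18 gave -0.44 in silenced cells over time and fell by 0.61 in control cells (limma adjusted p = 0.00451), with -0.21 and -0.18 on its dimmer probe. Tssc4 gave -0.52 in silenced cells and fell by 0.52 in control cells (limma adjusted p = 0.00560). Nap1l4 gave -0.26 in silenced cells and fell by 0.32 in control cells (limma adjusted p = 0.0476). The call for Nap1l4 held in 4 of 9 other settings, with an adjusted p between 0.00155 and 0.104, and its other probes gave -0.67 and -0.47 in control cells.

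Cd81 went the other way: it read 14.70 and 15.04 in silenced cells at 96 h, against 14.05 and 14.03 at 24 h (0.83), and in control cells 14.63 and 14.54 against 14.17 and 13.89 (0.56, SE 0.12, limma adjusted p = 0.00934). Ascl2 (-0.25) and Kcnq1 (0.13) did not pass in control cells. Of the 5 falls in control cells that of Nap1l4 is the one that other settings did not keep.

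In the Peg10 domain 3 of 4 genes rose in control cells, beside 19.4% of all genes. Calcr was at 7.64 and 7.65 in silenced cells at 96 h, against 6.69 and 6.79 at 24 h (0.91, 1.87-fold). In control cells it was at 8.64 and 8.56 at 96 h, against 6.71 and 6.84 at 24 h, a rise of 1.83 (SE 0.10, limma adjusted p = 2.16e-05) or 3.55-fold, and 158 of all genes rose more. Its dimmer probe gave 0.08 in silenced and 0.38 in control cells. The 96 h level in silenced cells thus lay between the 24 h levels and the 96 h level of control cells.

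Sgce was at 10.82 and 10.91 in silenced cells at 96 h, against 9.29 and 9.34 at 24 h (1.55), and in control cells at 11.04 and 10.79 against 9.29 and 9.28 (1.63, SE 0.14, limma adjusted p = 0.000153). Its dimmer probe gave 0.94 in control cells. Ppp1r9a gave 0.67 in silenced cells and rose by 0.78 in control cells (limma adjusted p = 0.00343) on its brightest probe, whereas its 3 dimmer probes gave -0.15, 0.12 and 0.08 in control cells. Peg10 gave -0.98 in silenced and -0.31 in control cells (SE 0.40 each) and did not pass in either, so beside the shared control region Sgce rose while the interval for Peg10 in control cells ran from -1.24 to 0.61.

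In the Mest domain the neighbours went opposite ways. Mest, a paternally expressed gene of the alpha/beta hydrolase family, gave -0.39 in silenced cells and in control cells was at 10.98 and 11.12 at 96 h, against 11.48 and 11.56 at 24 h (-0.47, SE 0.09, limma adjusted p = 0.00647). Copg2, a maternally expressed coat protein of Golgi vesicles, gave 0.94 in silenced cells and in control cells was at 10.61 and 10.89 at 96 h, against 9.67 and 9.90 at 24 h (0.97, SE 0.09, limma adjusted p = 0.000186). The brighter of the 2 other Copg2 probes gave 0.88 and the dimmer 0.18 in control cells.

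Peg3 gave -0.60 in silenced cells and fell in control cells (-0.50, SE 0.09, limma adjusted p = 0.00528), where it read 7.65 and 7.73 at 96 h against 8.20 and 8.17 at 24 h. Its other probe gave -0.45 in silenced and -0.27 in control cells. Slc38a4, the amino acid transporter, gave 1.0 in silenced cells and rose by 0.77 in control cells (limma adjusted p = 0.00233), where it read 7.22 and 7.16 at 96 h against 6.42 and 6.44 at 24 h, and its other probe gave 0.21 in control cells. Impact gave 0.70 in silenced cells and rose by 0.63 in control cells (limma adjusted p = 0.00389), and Trappc9, a subunit of a vesicle-tethering complex, gave 0.63 in silenced cells and rose by 0.58 in control cells (limma adjusted p = 0.00554).

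The members of the Snrpn domain, where Snrpn encodes a splicing protein, Ndn encodes necdin and Ube3a encodes a ubiquitin ligase, did not pass over time. In silenced cells Snrpn gave -0.23, Ndn 0.26 and Ube3a 0.08, and in control cells -0.17, 0.26 and 0.17. In control cells Commd1 (-0.02), Zrsr1 (0.20), Plagl1 (-0.03), Dlk1 (-0.16), Gnas (0.22) and Nnat (0.04) did not pass either. Over the 14 members that did not pass in control cells the range was -0.31 (Peg10) to 0.26 (Ndn), with SEs between 0.09 and 0.40.

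Some trophoblast markers also moved over time. Their list summed to 5105 to 5181 in silenced cells at 96 h against 583 to 593 at 24 h, and to 4609 to 5119 in control cells at 96 h against 582 to 594 at 24 h. In control cells 2 of the 4 measured members rose and 1 fell, beside 19.4% and 16.8% of all genes. Tfap2c, which carries most of the rise in the sum, rose by 3.84 and Hand1 by 0.62. Cdx2 fell by 0.42, and Ascl2 (-0.25) did not pass. Of 8 measured endoderm genes Dab2 (1.12), Amn (0.75), Cubn (0.69) and Afp (0.35) rose in control cells, beside 19.4% of all genes. Another 3 were below 0 (lowest -0.36) and did not pass. The endoderm sum in control cells was 7136 to 7236 at 96 h against 8577 to 8824 at 24 h. The part of such shifts in the changes of Cdkn1c, Phlda2, Igf2, Sgce and Calcr was not tested.

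Genes that write, read and protect imprinting marks were listed apart, and 13 of 18 were measured. In control cells 2 of them rose between the times and 6 fell, beside the 19.4% and 16.8% of all genes. Dppa3, the maternal protein that shields imprints in the early embryo, rose by 1.99 (limma adjusted p = 7.23e-05). The histone methyltransferase Ehmt2 fell by 1.32, the DNA methyltransferase cofactor Dnmt3l by 0.89, the hemimethylation reader Uhrf1 by 0.86, the dioxygenase Tet2 by 0.85 and the corepressor Trim28 by 0.79 (limma adjusted p between 0.000196 and 0.00118).

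At 96 h 2 of the 13 passed in the silencing contrast, beside 13.5% of all genes. The de novo methyltransferase Dnmt3b was at 11.86 and 11.87 in silenced cells, against 12.39 and 12.63 in control cells, with ratios of -0.53 and -0.75 (mean -0.64, SE 0.06). Its paralogue Dnmt3a was at 13.10 and 13.09 in silenced cells, against 12.82 and 12.85 in control cells, with ratios of 0.29 and 0.24 (mean 0.26, SE 0.06). The groups do not overlap for either gene, and the enzymes differ in direction. The maintenance methyltransferase Dnmt1 gave 0.12 and Uhrf1 -0.02, and neither passed.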

How the data were processed

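RNA was hybridised to 4 two-colour Agilent arrays, 2 per time with the dyes exchanged; per the labels' protocols 200 ng of total RNA was labelled. The authors extracted the scans with Agilent's Feature Extraction software, version 10.7.1.1 per the file headers and 10.7 per the submitters' processing notes, which also name limma with no version. Per the file headers, the deposited scans give the brightness of each spot and of its surroundings as intensity in arbitrary units, together with log10 ratios of Cy5 to Cy3. The authors' series table holds the same log10 ratios turned to silenced over control, within 4.97e-06, and served as an alternative. Probe coordinates were not used here.

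With R 4.3.3 and limma 3.58.1, median signals were background-corrected (normexp, offset 50) and loess-normalized within arrays with the 1639 control spots of 45018 at weight 0. From there 429 flagged readings were left out and spots of a probe averaged; values are log2 intensity or log2 ratio. A probe had to be well above background on both arrays of at least 1 RNA group (28079 of 41174 probes), and the brightest probe of a gene was tested; 24387 probes were named by accession or symbol through RefSeq. Levels of different probes are not compared.

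The limma model for silencing held 1 mean for each time plus a dye term, which coincides with the replicate number and so is also a replicate block (residual df 1, prior df 33.9). Same-numbered arrays deviated together (correlation 0.70 over 21751 genes), but with 2 pairs this is not separable from dye. Change over time was fitted by lmscFit on single channels after Aquantile with a dye term (intraspot correlation 0.896). A call is a Benjamini-Hochberg adjusted p under 0.05 over all 21751 genes, two-sided. The scripts were tested on simulated data. The members, the other lists and the markers were chosen with earlier results of these data known; every member is named, and of other lists up to 6 genes past the threshold, with further markers named beside results they bear on.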

Additional observations from a re-analysis of the deposited data

Results flagged for a closer look

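The effect of silencing at 96 h differed from that at 24 h in 5 imprinted genes, by the contrast of the 2 effects in the limma fit. The difference in log2 ratio, 96 h minus 24 h, was -0.994 for Grb10, -0.921 for Calcr, -0.669 for Peg10, -0.375 for Phlda2 and -0.368 for Cdkn1c. The list was drawn up with the 96 h values known, so the 5 are a description. Without the replicate block none of the 5 passed the threshold, with an adjusted p of 0.0707 for Grb10, 0.0737 for Calcr, 0.650 for Peg10, 0.591 for Phlda2 and 0.649 for Cdkn1c. The reason was not tested.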

How the results depend on the processing

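No imprinted gene past the threshold in a contrast reversed its direction there under any alternative run. Of all 31, 10 at 96 h and 18 at 24 h had opposite signs on the 2 arrays, so that their sign depends on which array is left out. Of all 21751 genes tested, 10595 at 96 h and 13504 at 24 h had opposite signs. Without 96 h replicate 2 the stem cell markers Pou5f1 and Dppa5a reversed, to 0.0065 and -0.84 (-2.11 and 1.26 without replicate 1). Of the other genes outside the list past the threshold at 96 h, the call held in 9 of 10 alternatives for Nes, in 8 for Cubn, in 6 for Dnmt3b and in 2 to 4 for the rest. At 96 h the 9 members past the threshold in the silencing contrast became 5 with a normexp offset of 16, 5 with median centring, 0 with the authors' ratios (9 with an unadjusted p under 0.05), and 2 without the replicate block; leaving out any 1 array, and with it the dye term, gave 2 each time. For the difference between the times the 5 became 2 with offset 16, 3 with median centring, 0 with the authors' ratios (7 with an unadjusted p under 0.05), 0 without the replicate block (6) and 0 without any 1 array (4 to 5). Without the replicate block the counts over all genes fell as well, to 106 at 96 h and 0 for the difference; removing the term leaves dye effects in the residual. The 24 h count stayed at 0 in the alternatives that kept every array. With offset 16, with the authors' ratios and without the replicate block no gene at all passed at 24 h, so the 0 says nothing about the members there. The counts over time were 17 to 21 in silenced and 16 to 20 in control cells, and each call named over time, markers and other lists included, held in all 9 alternatives except that of Nap1l4 in control cells.

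The class medians are close to 0 and moved by more than the spread between the arrays in some settings; the cause was not tested. With the authors' ratios the maternal median at 24 h was 0.017 and the paternal median at 96 h was -0.066, and the medians of the difference were 0.0010 and -0.066. Median centring gave 0.030 and 0.014 for the maternal and paternal medians of the difference, no filter on dim probes 0.0038 for the maternal one, and offset 16 -0.025 for the paternal one. Over time, offset 16 gave a paternal median of -0.078 in silenced and a maternal median of 0.17 in control cells, and no filter gave a maternal median of 0.00091 in silenced cells. Leaving out each array gave maternal medians of -0.034 to 0.036 and paternal medians of -0.023 to -0.0034 at 96 h, of 0.014 to 0.026 and -0.029 to 0.028 at 24 h, and of -0.075 to -0.0061 and -0.052 to 0.015 for the difference. In silenced cells over time they were -0.019 to 0.087 and -0.027 to -0.00012, and in control cells 0.11 to 0.15 and -0.022 to 0.062.

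With 1 residual degree of freedom the p-values of silencing lean on the spread shared over genes. Zrsr1 was not well above background in 2 of 8 channels. Leaving out 96 h replicate 2 is also the fit within the first slide.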

Other observations

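A further list of 37 imprinted genes holds 27 found on the array, of which 20 were well above background. At 96 h 3 of the 20 passed in the silencing contrast, beside 13.5% of all genes. Ddc, which makes dopamine and serotonin from their precursors, was at 8.69 and 8.73 in silenced cells, against 8.44 and 8.38 in control cells (mean ratio 0.30). Atp10a, a phospholipid flippase, was at 6.62 and 6.61 in silenced cells, against 7.0 and 6.84 in control cells (-0.31). Dhcr7, the last enzyme of cholesterol synthesis, was at 11.04 and 11.01 in silenced cells, against 11.41 and 11.15 in control cells (-0.25). Over time in control cells 7 of the 20 rose and 4 fell, beside 19.4% and 16.8% of all genes, between the lipid transfer protein gene Osbpl5 at 1.13 (limma adjusted p = 0.000106) and Ddc at -2.21 (limma adjusted p = 7.54e-06).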
